A study of Mus musculus with 2 samples.

Results

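The hepcidin and iron handling genes are 10 genes of iron balance: the hepcidins Hamp and Hamp2, the ferritins Fth1 and Ftl1, the iron uptake genes Tfrc, Trf, Slc11a2 and Cybrd1, the exporter Slc40a1 and the heme oxygenase Hmox1. They were chosen by symbol (HAMP, HAMP2, TFRC, FTH1 and so on in the file), with earlier results of these arrays known, and are read by 13 of the 25697 probes, among 16905 genes. The arrays hold RNA of the glandular stomach, rinsed and emptied, from mice labelled as a female AGR2 null and a female AGR2 wild-type, both aged 26 weeks. The sources used here do not give the strain, the design of the null allele or whether RNA was pooled. There was 1 array per genotype, so no difference has a replicate check and no p-value is given. In whole tissue, fewer cells of a type, less RNA per cell and a different share of neighbouring tissue taken with the sample cannot be told apart.

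Hepcidin is a peptide hormone, made mainly by the liver, that binds the iron exporter ferroportin and causes its breakdown, so that less iron leaves gut cells and macrophages. Mice carry a pair of hepcidin genes. Hamp is the gene whose product controls body iron, and Hamp2 is a close copy expressed in liver and pancreas. Cells take up transferrin-bound iron through the transferrin receptor and store it in ferritin, and heme oxygenase frees iron from heme. In the stomach, acid from parietal cells keeps dietary iron soluble, and parietal cells have been reported to make hepcidin.

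Detection was judged against 1314 probes for olfactory and vomeronasal receptors, whose 99th percentile was 227 on the array labelled null and 200.4 on the array labelled wild-type. A probe counts as detected, or well above background, where under 0.01 of these background probes were as high. Folds and log2 differences are of values corrected for background and quantile normalized, the array labelled null over or minus the array labelled wild-type. For a gene detected on 1 array, a fold is given as a minimum, taken against the lowest detected value of the other array, or the probe's own value where higher. It is the lowest over the 7 normalizations run and the deposited signals. The labels did not all match the signals. Agr2 itself read 3406 on the array labelled null and 972 on the array labelled wild-type, with a normalized value 3.13-fold higher on the array labelled null. Its only probe cannot check the label if it lies outside the deleted part, which the sources used here do not state. Xist, a transcript of the inactive X, read 1774 on the array labelled null and 186 (not detected) on the array labelled wild-type. Y-linked Eif2s3y read 134 (not detected) on the array labelled null and 2096 on the array labelled wild-type, although both mice are labelled female. Y-linked Ddx3y was detected on both, with 2138 on the array labelled null and 5332 on the array labelled wild-type by the brightest of 3 probes. Arrays are therefore named by their labels throughout, and if the 2 labels were exchanged every direction given here would turn. Exchanging the labels would not remove the difference in Xist and Eif2s3y between mice both labelled female. With 1 array per genotype, a sex difference and the genotype label cannot be told apart in any difference given here. The gastric mucosal genes Gkn1 and Tff2 read over 40000 on both arrays, where signals approach the ceiling.

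The promoters of the hepcidin genes are shown because the 2 copies gave very different signals. Both genes lie on chromosome 7, and RefSeq (GRCm38.p6) places the 250 bases before the Hamp2 start at chr7:30924182-30924431 and those before the Hamp start at chr7:30944030-30944279, both on the minus strand. Capitals mark 3 motifs searched on both strands: GGCGCC, the core of the BMP-responsive element of the hepcidin promoter, TTCTTGGAA, its STAT3 site, and TGAGTCA, an AP-1 site.
Hamp2: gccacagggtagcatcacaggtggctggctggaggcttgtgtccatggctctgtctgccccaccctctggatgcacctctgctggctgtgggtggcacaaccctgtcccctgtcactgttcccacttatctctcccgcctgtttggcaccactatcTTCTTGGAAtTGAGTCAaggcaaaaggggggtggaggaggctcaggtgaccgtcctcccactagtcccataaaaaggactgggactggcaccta
Hamp: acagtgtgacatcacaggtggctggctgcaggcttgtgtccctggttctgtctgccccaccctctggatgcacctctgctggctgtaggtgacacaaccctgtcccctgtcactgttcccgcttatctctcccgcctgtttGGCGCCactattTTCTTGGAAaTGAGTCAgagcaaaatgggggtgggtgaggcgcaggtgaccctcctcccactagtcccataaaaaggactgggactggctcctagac
Over 247 aligned bases the promoters were 91.9% identical. TTCTTGGAA stood 94 to 86 bases before the start of Hamp2 and 97 to 89 bases before that of Hamp. GGCGCC was found in Hamp, 109 to 104 bases before the start, and not in Hamp2, where the aligned stretch differs by G4A (Hamp base first, counted from 1 at the first base of this motif). The AP-1 letters were found in both. The motifs do not overlap. Of 32851 RefSeq promoter windows of the same length, 9.59% hold GGCGCC, 0.365% hold TTCTTGGAA and 4.46% hold TGAGTCA. A match describes letters only.

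Hamp2 separated the arrays more than any other of the 10 genes. Its signal was 198 on the array labelled null and 19116 on the array labelled wild-type. On the array labelled null, 3.20% of background probes were at least as high as Hamp2, so Hamp2 was not well above background there. By the deposited signals Hamp2 was at least 84.1-fold lower on the array labelled null, and by values normalized without background correction at least 94.8-fold. With the background correction used the minimum was 209.9-fold, so the size rests on that step, and the log2 difference of -8.16 given for Hamp2 below is not a measured level on the array labelled null.

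Hamp, the copy that controls body iron, was not well above background on either array. It read 124 on the array labelled null, where 70.7% of background probes were at least as high, and 155 on the array labelled wild-type, where 9.66% were. No fold is given for it. The high signal on the array labelled wild-type therefore came from the Hamp2 probe alone. The 2 genes are close copies and probe sequences were not used here, so how much Hamp RNA the Hamp2 probe also reads is uncertain.

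**Figure D1:**
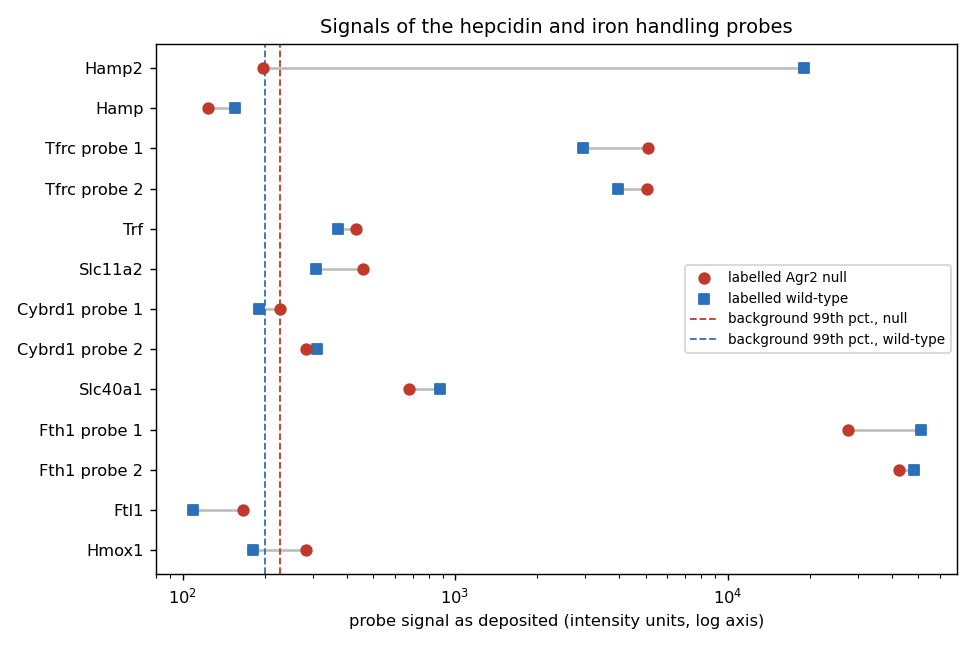
Deposited signal (intensity units, log axis) of each of the 13 probes, 1 row per probe, on the array labelled null (circles) and the array labelled wild-type (squares), with dashed lines at each array's 99th percentile of background probes. Hamp2 spans the plot, with 198 on the array labelled null and 19116 on the array labelled wild-type, whereas no other probe differs by as much as 2-fold in signal.

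Hamp2 was low on the array where parietal, pancreatic acinar and squamous genes were also low, and the part of these cells in its signal was not tested. Of 11 detected parietal markers, 10 were at least 2-fold lower on the array labelled null, beside 17.1% of all detected genes, and 1, the carbonic anhydrase Car2, was higher, and the list had a median log2 difference of -3.86. Taking undetected values at their bound, as also in the other bounds given for lists, the median was -2.94. Of the 11, 4 passed detection only through the array labelled wild-type. The 7 detected on both arrays had a median of -3.86. The proton pump subunit Atp4a read 265 on the array labelled null and 43340, near the upper limit of the scale, on the array labelled wild-type. Its partner Atp4b read 469 on the array labelled null and 55622 on the array labelled wild-type. Summed over the 14 parietal markers on the array, the signal was 20355.9 on the array labelled null and 188203.5 on the array labelled wild-type. Parietal markers Kcne2, Aqp4, Hrh2 and Cckbr were not well above background on the array labelled null, and Kcnq1, Slc26a7 and Esrrg on neither array.

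Markers of pancreatic acini, the pancreas being a known site of Hamp2 expression, were lower as well. Of 17 detected, 15 were at least 2-fold lower on the array labelled null, beside 17.1% of all detected genes, and 1, Reg1, was higher. The median was -5.70, or -4.69 by bound, but 13 of the 17 passed detection only through the array labelled wild-type. Of the 4 detected on both arrays 2 were lower (median -1.36), beside 816 of all 7628 genes detected on both. The lipase relative Pnliprp1 read 207 on the array labelled null, not well above background, and 14823 on the array labelled wild-type. The summed signals of the list were 31594.2 labelled null and 125972.8 labelled wild-type. The lipase cofactor Clps, with 10842 on the array labelled null and 51156 on the array labelled wild-type, and Cela1, an elastase with 6446 labelled null and 7513 labelled wild-type, stayed well above background on both.

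Hepatocyte markers were mostly not detected. Of 10 on the array, 7 were not well above background on either, among them albumin (Alb) and fibrinogen (Fga, Fgb). The 3 detected were at least 2-fold lower, beside 17.1% of all detected genes. Of the 3, 2 passed detection only through the array labelled wild-type. The other and brightest, the thyroid hormone carrier Ttr, read 4137 on the array labelled null and 13643 on the array labelled wild-type. The summed signals were 5384.1 labelled null and 15623.2 labelled wild-type. Squamous markers had 9 of 10 lower, beside 17.1% of all detected genes, and 1, Ivl, higher (median -5.82, or -5.48 at the bound). Their summed signals were 4075.7 labelled null and 144512.4 labelled wild-type. Of the 10, 6 passed detection only through the array labelled wild-type. The 3 detected on both arrays were all lower (median -5.92), beside 816 of all 7628 genes detected on both. Smooth muscle markers had 8 of 8 lower, beside the same 17.1% (7 by bound, median -2.90, summed signals 28176.2 labelled null and 107248 labelled wild-type).

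The genes with the log2 differences nearest to that of Hamp2 over the 2 arrays were taken from 31 genes of the cell type and iron lists that, like Hamp2, were detected only on the array labelled wild-type. They were the keratin Krt14 and the acinar genes Pnliprp1, Try4, Try10 and Cela2a. That choice of candidates fixes a low value on the array labelled null, and all 5 have only a minimum, from 23.5-fold lower for Try4 to 65.2-fold lower for Pnliprp1, so their order and their distance from Hamp2 are not resolved. Parietal Atp4a (log2 difference -8.36) and Atp4b (-7.50) were detected on both arrays, so they were not candidates. By these values Atp4a lay nearer to Hamp2 (-8.16) than any of the 5, though the value of Hamp2 is itself not resolved.

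**Figure D2:**
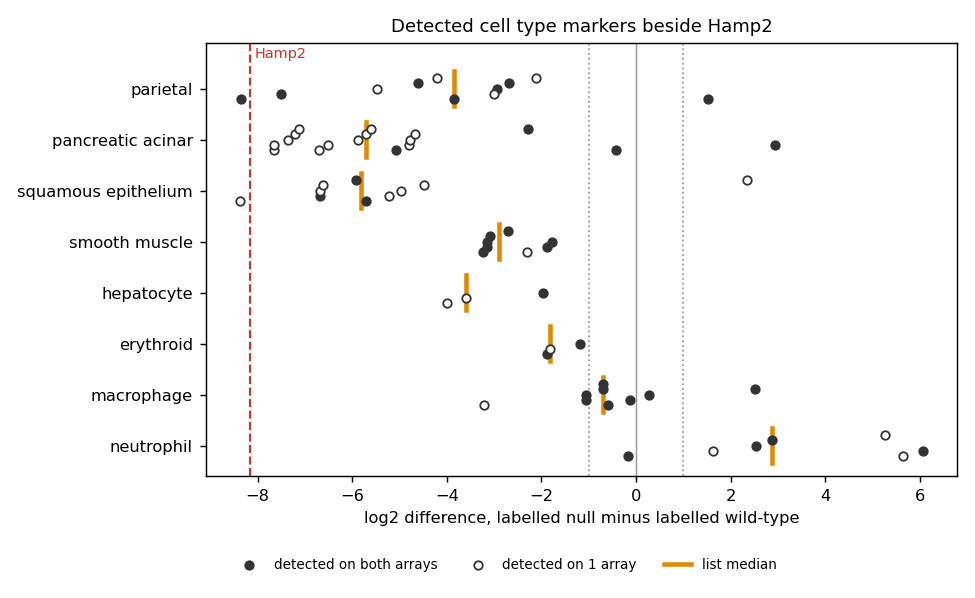
Log2 difference (array labelled null minus array labelled wild-type) of each detected marker of 8 cell types, with filled points for genes detected on both arrays, open points for genes detected on 1, orange bars for list medians and a dashed line at the -8.16 of Hamp2. Parietal and squamous markers lie left of 0 except Car2 and Ivl, and neutrophil markers lie mostly right of 0.

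Of the 10 protein-coding genes nearest to the hepcidins on chromosome 7, 5 on each side in the RefSeq order, 5 were detected. None was at least 2-fold lower, beside 17.1% of all detected genes, and 1 was higher, beside 13.1%. That gene was Lsr, a lipoprotein receptor of tricellular junctions, with 1883 on the array labelled null and 518 on the array labelled wild-type (log2 difference 1.79). Usf2, the transcription factor gene next to Hamp, read 240 (labelled null) and 219 (labelled wild-type), a log2 difference of -0.15.

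Apart from Hamp2, the detected iron handling genes differed by less than 2-fold. Of the 10 genes 8 were detected on at least 1 array, 6 of them on both, and Hamp and Ftl1 on neither. At least 2-fold lower on the array labelled null was 1 of the 8, Hamp2, beside 17.1% of all 9353 detected genes (13.6% at the bound). None was at least 2-fold higher, beside 13.1% of all genes (10.7% at the bound). Since the genes were chosen with these values known, the shares are a description. Their median log2 difference was -0.11, and that of all detected genes was 0.00.

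The 4 iron uptake genes were within 2-fold on the 2 arrays. The transferrin receptor Tfrc, which brings transferrin-bound iron into cells, read 5080 and 5113 by its 2 probes on the array labelled null, against 3957 and 2959 on the array labelled wild-type. The probes gave log2 differences of 0.12 and 0.54. Both probes were higher on the array labelled null, by unequal amounts. Transferrin (Trf), the iron carrier of plasma, read 433 on the array labelled null and 371 on the array labelled wild-type. After normalization its difference was -0.07, and it turned positive under scaling to equal medians (0.08) and in the authors' processed values (0.03). Slc11a2, the divalent metal transporter DMT1 that carries ferrous iron over membranes, read 461 (labelled null) and 308 (labelled wild-type), a log2 difference of 0.45.

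Cybrd1, a ferric reductase of the duodenal brush border, sat close to background. Its brighter probe read 284 on the array labelled null and 313 on the array labelled wild-type (log2 difference -0.63). Its other probe read 227 (labelled null) and 190 (labelled wild-type), not well above background on either array.

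Slc40a1 encodes ferroportin, the iron exporter that hepcidin acts on through its protein. It read 677 on the array labelled null and 881 on the array labelled wild-type, both well above background. The normalized log2 difference was -0.81, or 1.75-fold lower on the array labelled null.

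Iron storage rested on Fth1, the ferritin heavy chain that oxidizes iron for storage. Its 2 probes read 42474 and 27722 on the array labelled null, against 48398 and 51282 on the array labelled wild-type. The log2 differences were -0.14 and -0.94. Both probes were over 40000 on the array labelled wild-type and 1 of them also on the array labelled null, close to the ceiling, and the probes disagree in size. Ftl1, the ferritin light chain, read 166 on the array labelled null and 109 on the array labelled wild-type, and the shares of background probes at least as high were 11.4% labelled null and 81.7% labelled wild-type. Its probe was not well above background on either array.

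Hmox1, the inducible enzyme that breaks heme down to iron, biliverdin and carbon monoxide, was detected only on the array labelled null. It read 284 there and 181 on the array labelled wild-type, where 2.44% of background probes were at least as high. The log2 difference was 0.95, or 0.59 at the bound in the processing used. By its lowest bound, without background correction, Hmox1 was at least 1.23-fold higher on the array labelled null. Under scaling to equal medians the log2 difference passed 2-fold, at 1.03.

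**Figure D3:**
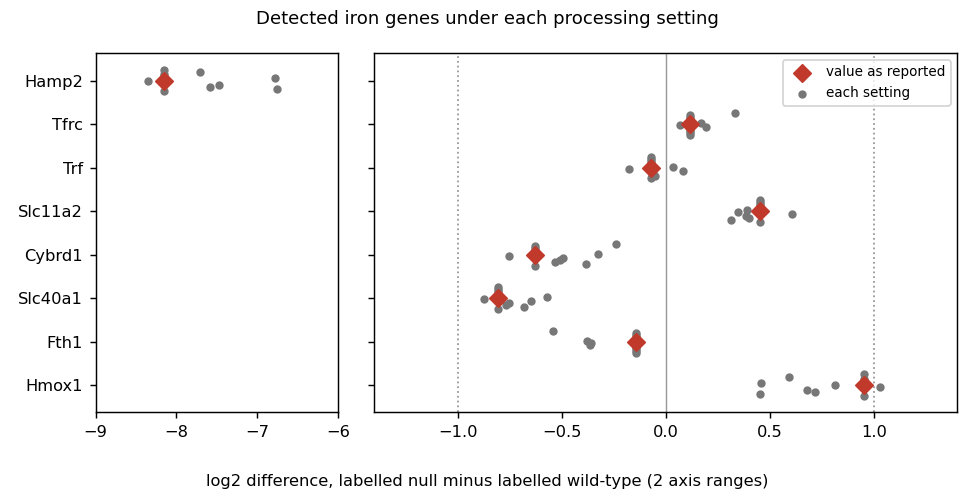
Log2 difference (array labelled null minus array labelled wild-type) of the 8 detected genes under the processing used (diamonds) and under each alternative setting (dots), with Hamp2 on an axis range of its own and dotted lines at 2-fold. Hamp2 lay between -8.35 and -6.76 in all settings that gave it a value, and the other genes stayed within 2-fold except Hmox1 at 1.03.

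Beyond the 10 genes, 75 other iron genes on the array were read as 5 lists, some genes in more than 1. Of 56 detected, 14 were at least 2-fold higher on the array labelled null (10 at the bound), 8 were lower (4 at the bound) and 34 were within 2-fold. Beside this, 13.1% of all detected genes were higher and 17.1% lower. The median was 0.00, as over all genes.

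Genes of hepcidin regulation, the BMP and interleukin 6 pathways that act on the hepcidin promoter, were mostly within 2-fold. Of 13 detected, 3 were higher (1 at the bound), beside 13.1% of all detected genes, and 1 was lower, beside 17.1%. The other 9 were within 2-fold (median 0.00). Of all 9353 detected genes, 6531 were within 2-fold, a like share. The ligand gene Bmp4 read 568 on the array labelled null and 1236 on the array labelled wild-type, 3.105-fold lower. Socs3, a target and inhibitor of STAT3 signalling, read 2341 (labelled null) and 798 (labelled wild-type), 2.60-fold higher. Il6, the cytokine that raises liver hepcidin, read 279 on the array labelled null and 125 (not detected) on the array labelled wild-type, at least 1.21-fold higher. Erfe, the erythroid hormone that lowers hepcidin, read 236 (labelled null) and 120 (labelled wild-type, not detected), at least 1.03-fold higher. Bmp6 and Bmp2, the main hepcidin inducers of liver endothelium, their coreceptor gene Hjv and the transferrin sensor Tfr2 were not well above background on either array. Smad1 and Smad5, which carry the BMP signal, differed by 0.00 by the brightest probe of each, and Id1, a BMP target, by -0.35. Another Smad1 probe, detected on both arrays, read 3285 (labelled null) and 1634 (labelled wild-type). It gave a log2 difference of 0.78, so the Smad1 probes disagree.

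Genes of iron uptake and transport were higher on the array labelled null. Of 9 detected, 7 were at least 2-fold higher, as many at the bound, beside 13.1% of all detected genes. The other 2 were within 2-fold. The list median was 1.38. Lcn2, which binds bacterial iron carriers, read 2357 on the array labelled null and 157 (not detected) on the array labelled wild-type, at least 10.1-fold higher. Ltf, the iron-binding lactoferrin, read 12415 (labelled null) and 1904 (labelled wild-type), 5.85-fold higher by its brighter probe. Its other probe read 339 (labelled null) and 181 (labelled wild-type, not detected). Lcn2 and Ltf are also neutrophil genes. Of 7 detected neutrophil markers, Lcn2 and Ltf among them, 6 were higher, beside 13.1% of all detected genes (5 at the bound, median 2.88). Summed signals, with Lcn2 and Ltf included, were 33804.7 labelled null and 3941.2 labelled wild-type. Of the 7, 3 passed detection only through the array labelled null. Of the 4 detected on both arrays 3 were higher (median 2.72), beside 806 of all 7628 genes detected on both. Camp, Cxcr2 and Mpo were not well above background on either array. The part of neutrophils in the values of Lcn2 and Ltf was not tested.

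The remaining higher genes of iron uptake and transport are not neutrophil markers. Ncoa4, the receptor that delivers ferritin to lysosomes, read 649 on the array labelled null and 195 (not detected) on the array labelled wild-type, at least 2.74-fold higher. The cytosolic iron chaperone Pcbp1 read 5888 (labelled null) and 1782 (labelled wild-type), 2.90-fold higher. The metalloreductase relative Steap1 read 1390 (labelled null) and 504 (labelled wild-type), 2.60-fold higher. The ferroxidase ceruloplasmin (Cp) read 610 (labelled null) and 272 (labelled wild-type), 2.44-fold higher. Its membrane relative hephaestin (Heph), which works with ferroportin, read 377 (labelled null) and 214 (labelled wild-type), 2.03-fold higher by the brightest of 5 probes. Only 1 other Heph probe was detected, on the array labelled null alone.

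Of 9 detected genes of iron sensing and storage, 4 were higher by 2-fold or more (2 by bound), beside 13.1% of all genes, none was lower and the median was 0.70. Over the 5 detected on both arrays 1 was higher (median 0.35), beside 806 of all 7628 genes detected on both. The stress factor gene Nfe2l1 and the heme-sensing repressor gene Bach1 had log2 differences of -0.49 and -0.63. Fbxl5, which targets an iron regulatory protein for breakdown, read 732 on the array labelled null and 281 on the array labelled wild-type, 2.89-fold higher, while its other 3 probes were not well above background. Ireb2, that iron regulatory protein, read 305 (labelled null) and 168 (labelled wild-type, not detected), at least 1.32-fold higher, and Hif1a, a subunit of the hypoxia factor, read 304 (labelled null) and 133 (labelled wild-type, not detected), at least 1.31-fold higher. Aco1, the other iron regulatory protein, was within 2-fold (548 labelled null and 377 labelled wild-type, log2 difference 0.35).

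Heme synthesis and mitochondrial iron genes were close to level. Of 16 detected, 3 were lower (2 at the bound), beside 17.1% of all detected genes, and the other 13 were within 2-fold (median -0.26). Alas1, the first enzyme of heme synthesis outside erythroid cells, read 6985 on the array labelled null and 7217 on the array labelled wild-type (-0.24). The mitochondrial carrier Slc25a38 was 2.89-fold lower by its brightest probe (1037 labelled null and 2274 labelled wild-type). Its other 2 probes gave -1.50 and 0.72 on the log2 scale, so they disagree. The decarboxylase Urod read 2705 (labelled null) and 4754 (labelled wild-type), 2.14-fold lower. Erythroid Alas2 read 157 (labelled null, not detected) and 250 (labelled wild-type), at least 1.097-fold lower.

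Of 10 erythroid markers 3 were detected, Alas2 itself among them, which passed detection only through the array labelled wild-type. All 3 were lower by 2-fold or more (2 by bound), beside 17.1% of all genes. The brightest, Hba-a1, read 3637 on the array labelled null and 11197 on the array labelled wild-type. Summed signals were 5678.8 labelled null and 13845.1 labelled wild-type, and the part of blood in the values of Alas2 and the heme genes was not tested.

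Genes of heme uptake, breakdown and export had 4 of 10 detected members lower (1 at the bound), beside 17.1% of all detected genes. Higher was 1, beside 13.1%, and 5 differed by less than 2-fold. The list median was -0.70, and with bounds -0.60. All 4 lower members passed detection only through the array labelled wild-type. Of the 6 detected on both arrays, 1 was higher and 0 were lower, with a median of -0.495. Among all 7628 genes detected on both, 806 were higher and 816 lower. Cd163, the macrophage receptor for haemoglobin bound to haptoglobin, read 171 (not detected) on the array labelled null and 527 on the array labelled wild-type. By this brighter probe it was at least 2.32-fold lower, and its other probe was not well above background on either array. Of 9 detected macrophage markers, Cd163 among them, 3 were lower, beside 17.1% of all detected genes. Higher was 1, Cd14, beside 13.1% (median -0.69 over the list, summed signals 7223.1 labelled null and 5413.7 labelled wild-type). Haptoglobin (Hp) itself read 774 on the array labelled null and 279 on the array labelled wild-type, 3.12-fold higher, and its other 2 probes were detected only on the array labelled null. The heme transporter Slc46a1, hemopexin (Hpx) and Flvcr2 were not well above background on the array labelled null. The minimum was 1.18-fold lower for Slc46a1 and 1.12-fold lower for Hpx, and none can be given for Flvcr2. For Hpx this is the brighter probe, and its other probe was not well above background on either array. Hmox2, the constitutive heme oxygenase, read 704 (labelled null) and 839 (labelled wild-type), a log2 difference of -0.65, and the biliverdin reductases Blvra and Blvrb differed by -0.44 and 0.09.

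Targets of Nrf2, the oxidative stress factor that also acts on Hmox1 and the ferritins, were higher in part. Of 8 detected, 4 were at least 2-fold higher, beside 13.1% of all detected genes, and none was lower (median 1.12). The cystine transporter Slc7a11 read 874 on the array labelled null and 241 on the array labelled wild-type, 4.70-fold higher. Gclm and Gclc, the subunits of the rate-limiting enzyme of glutathione synthesis, were 4.32-fold higher (3226 labelled null and 694 labelled wild-type) and 3.02-fold higher (1433 labelled null and 464 labelled wild-type). The quinone reductase Nqo1 was 3.63-fold higher by its brighter probe and 0.85 on the log2 scale by the other. Srxn1, Txnrd1, G6pdx and Osgin1 were within 2-fold (0.63, 0.37, 0.64 and -0.22), as was Hmox1 at 0.95.

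**Figure D4:**
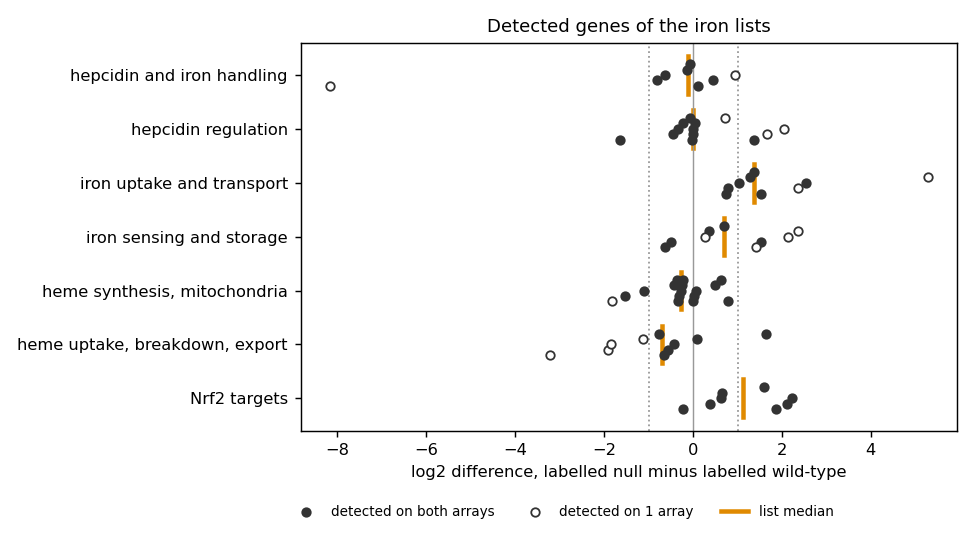
Log2 difference (array labelled null minus array labelled wild-type) of each detected gene among the 10 iron genes, the other 5 iron lists and the Nrf2 targets, with filled points for genes detected on both arrays, open points for genes detected on 1, orange bars for list medians and dotted lines at 2-fold. Hamp2 at -8.16 is the lowest point, and the uptake and transport list and the Nrf2 targets have medians of 1.38 and 1.12.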

How the data were processed

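Per the labels, total RNA of glandular stomach was labelled with biotin and put on Illumina bead arrays (MouseRef-8 v2). The intensity values that the authors deposited as not normalized are linear signals, from 70.7 to 57640. The sources used here do not say how beads were summarised. The authors' processed values are the same intensities times 1 factor per array (0.842 for the array labelled null and 0.960 for the array labelled wild-type), found from the values, with medians of 158 labelled null and 162 labelled wild-type. They are linear and not centred.

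The signals that were not normalized were background corrected in limma 3.58.1 (R 4.3.3) by a normal-exponential fit, with 1314 olfactory and vomeronasal receptor probes as background and an offset of 16, then quantile normalized and taken as log2. Any of these receptors expressed in stomach would set background too high. A probe was detected where under 0.01 of background probes were as high. A gene took its brightest probe, and differences of at least 2-fold were counted without a test. For a gene detected on 1 array, the bound sets the bright value against the higher of the dim value and the lowest detected value of the other array. Bounds under each normalization and in the deposited signals were added after seeing the data, and the lowest is printed as a minimum fold. Mean signals were 925 on the array labelled null and 811 on the array labelled wild-type, and precision is limited by the number of arrays. Of 18138 symbols, 14309 matched a current GRCm38.p6 symbol, 2687 a single synonym and 1142 kept their name. Steps were tested on simulated data.

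Members and lists were chosen with earlier results of these data known. Named were all members, Agr2, up to 5 genes of each iron list that passed 2-fold by most, the 3 brightest of each cell type list and the 5 nearest to Hamp2. Not all are reported, and others named from the lists and beside the hepcidins were chosen after their values were seen. Alternatives covered background, normalization, starting values, detection and probes.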

Additional observations from a re-analysis of the deposited data

How the results depend on the processing

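Hamp2 was lower on the array labelled null in every setting that gave it a value, from 108-fold without background correction to 326-fold with cyclic loess. These are fitted values and no bounds, since Hamp2 was not well above background on that array. The lowest bound was 84.1-fold, in the deposited signals. With only genes detected on both arrays, Hamp2 dropped out and 6 of the 10 genes were left. Of these 6, 0 were at least 2-fold lower, beside 816 of all 7628 genes detected on both. Under scaling to equal medians 1 of the 10 genes was at least 2-fold higher, Hmox1 at 1.03, and the median of all genes moved to 0.12. Counts of all genes, 1225 higher and 1597 lower in the processing used, were 679 and 1012 without background correction, 799 and 933 in the authors' processed values, and 806 and 816 for genes detected on both. The share of higher genes among these was 43.4% in the processing used, 50.2% under scaling to equal medians and 37.9% with cyclic loess. List medians that came under 2-fold were 0.82 for iron uptake and transport, -0.24 for hepatocyte and -0.43 for erythroid markers without the detection filter, 0.96 for Nrf2 targets without background correction, and, for erythroid markers, -0.95 in the authors' processed values and -0.93 with detection under 0.05. The cause of these shifts was not tested. No paired analysis was possible because each genotype has 1 array.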
